A study of Mus musculus with 7 samples.

Results

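Promoter sites in the shores of CpG islands were single cytosines that the deposited annotation placed both in a promoter and in an island shore, the stretch that flanks a dense cluster of CpG dinucleotides. They were chosen by these annotation classes alone, with no use of methylation values. The rescue table listed 2348 such sites among 18189, around 737 transcript starts. The knockdown table listed 2763 among 21989, around 860 starts. Both tables held 1625 of these sites in common, and the wild-type reads were identical at all 1625 of them.

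Methylation was read by reduced representation bisulfite sequencing (RRBS), which cuts DNA with restriction enzymes to enrich CpG-rich fragments and tells methylated from unmethylated cytosines read by read. The 7 libraries came from mouse J1 embryonic stem cells grown with serum and leukemia inhibitory factor on gelatin. The groups were wild type (2 libraries), Uhrf1-/- (2 libraries), Uhrf1-/- cells with wild-type human UHRF1 (wild-type rescue, 1 library), Uhrf1-/- cells with human UHRF1 carrying K667R, K668R and K670R (3KR rescue, 1 library), and a stable Mof knockdown (1 library). Both rescue lines thus lacked the mouse protein and carried a tagged human one, and per the labels' protocols each rescue line was grown from a single drug-resistant colony. The rescue table held all groups except the knockdown, and the knockdown table held wild type and the knockdown. The rescues and the knockdown have no replicate, so their differences are given as values, and a test of them has to borrow the spread of the replicated groups.

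Methylation of CpG dinucleotides is copied after replication by DNMT1, which UHRF1 brings to hemimethylated DNA. MOF (Kat8) is a lysine acetyltransferase, and the series asks how MOF-mediated acetylation of UHRF1 bears on this copying. Island promoters are mostly free of methylation in stem cells, while shores form the border between unmethylated islands and methylated surroundings, and they are known as places where methylation differs between cell types. Promoters of a set of germline genes are methylated in embryonic stem cells and silenced there.

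The sites sat within 1001 bases of a start, 926 upstream and 1422 downstream in the rescue table. RefSeq start windows covered few of them: 182 sites of the rescue table fell in one, and all 182 were CpG dinucleotides. Of 194 such sites of the knockdown table, 192 were CpG. Only 34 windows held 3 or more sites of the rescue table, and just 1 of these, that of Tmprss12, averaged 20% or more in wild type. The window with the highest and the windows with the lowest wild-type methylation are printed 5′ to 3′ on the gene's strand, from 250 bases before to 50 after the RefSeq start (build GRCm38.p6, that is mm10), with the measured CpGs in capitals. Tmprss12 encodes a transmembrane serine protease (chr15:100280587-100280886, plus strand), Pdk2 a pyruvate dehydrogenase kinase (chr11:95040826-95041125, minus strand) and Ssu72 a phosphatase of the RNA polymerase II tail (chr4:155704565-155704864, plus strand).
Tmprss12: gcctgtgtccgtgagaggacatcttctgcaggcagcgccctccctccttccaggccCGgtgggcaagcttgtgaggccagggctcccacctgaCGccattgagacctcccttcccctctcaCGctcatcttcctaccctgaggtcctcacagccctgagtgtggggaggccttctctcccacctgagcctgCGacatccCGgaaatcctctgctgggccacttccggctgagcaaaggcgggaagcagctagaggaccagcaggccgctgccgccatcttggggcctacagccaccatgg
Pdk2: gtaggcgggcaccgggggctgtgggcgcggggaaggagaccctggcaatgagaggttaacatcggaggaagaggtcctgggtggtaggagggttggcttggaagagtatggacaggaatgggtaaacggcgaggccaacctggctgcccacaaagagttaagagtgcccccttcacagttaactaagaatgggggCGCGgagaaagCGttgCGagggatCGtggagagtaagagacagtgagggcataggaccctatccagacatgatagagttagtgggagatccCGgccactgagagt
Ssu72: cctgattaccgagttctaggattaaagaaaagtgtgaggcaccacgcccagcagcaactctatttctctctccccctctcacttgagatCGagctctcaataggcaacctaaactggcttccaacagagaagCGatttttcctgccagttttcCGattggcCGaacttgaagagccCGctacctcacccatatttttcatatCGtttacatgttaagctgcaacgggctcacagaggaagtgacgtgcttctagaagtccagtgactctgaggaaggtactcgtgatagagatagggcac

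The 5 Tmprss12 sites, 193 to 50 bases before the start, averaged 38.7% and 52.4% in the wild-type libraries and 5% and 13% in the Uhrf1-/- libraries. They averaged 8% with wild-type UHRF1 and 44% with 3KR. The rescues therefore stood the other way round here than over the whole class, described below. Pooled over the sites, 4 of 42 reads were methylated in the wild-type rescue (9.52%, Wilson 95% interval 3.77 to 22.1%) and 20 of 45 in the 3KR rescue (44.4%, 30.9 to 58.8%). Such intervals cover counting error only, and neighbouring sites share reads. The 6 Pdk2 sites held no methylated read in any of the 6 libraries of the rescue table, with 51 to 143 reads each, which allows at most 5.88% where 51 reads were seen. The 6 Ssu72 sites averaged between 0 and 1.85% in all 6.

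Among the 3 germline genes with sites in the class, 2 turn out below to be highly methylated in wild type. Their measured sites lie upstream of the RefSeq windows, so the windows show the unmeasured core promoters. Capitals mark TCCCGC, the core letters recognised by some E2F factors, and CACGTG, an E-box, both searched on both strands. Meioc (chr11:102665335-102665634, plus strand) acts in the germ cells' entry into meiosis, and Sycp1 (chr3:102936051-102936350, minus strand) is a structural part of the synaptonemal complex that holds paired chromosomes together.
Meioc: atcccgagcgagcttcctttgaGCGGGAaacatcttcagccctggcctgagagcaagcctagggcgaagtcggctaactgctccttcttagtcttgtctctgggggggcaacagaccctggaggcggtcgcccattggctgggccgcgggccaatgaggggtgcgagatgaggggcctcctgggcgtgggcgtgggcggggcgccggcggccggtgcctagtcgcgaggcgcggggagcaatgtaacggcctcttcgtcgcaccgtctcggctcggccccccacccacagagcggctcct
Sycp1: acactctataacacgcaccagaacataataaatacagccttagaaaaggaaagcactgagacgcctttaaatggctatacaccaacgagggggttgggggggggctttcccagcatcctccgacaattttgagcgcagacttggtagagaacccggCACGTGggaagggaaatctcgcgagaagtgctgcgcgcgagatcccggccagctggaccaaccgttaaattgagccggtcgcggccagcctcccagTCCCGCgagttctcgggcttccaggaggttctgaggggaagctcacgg

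TCCCGC, in either orientation, occurred in 46.8% of the 344 RefSeq windows matched to starts of the class and in 20% of all 32851 windows. CACGTG occurred in 8.14% and 7.15%. The GC-box letters GGGCGG occurred in 72.4% of the class's windows and 35.7% of all, and can overlap TCCCGC on the other strand. The windows of the class were rich in G and C (median 63.2%, against 52.7% over all windows) and in CpG, with a median ratio of observed to expected CpG of 0.797 against 0.384. Windows of the starts with promoter sites in islands were near the class: 41.7% held TCCCGC and 72.2% GGGCGG, with a median of 63% G and C and a ratio of 0.832. Windows of starts whose promoter sites lay outside islands and shores had a ratio of 0.378. These letters describe the windows and say nothing of binding.

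Each site was read by a median of 10 to 20 reads in each library, and sums over the class ran from 36826 to 98831 reads a library. Libraries of a group are labelled as separate samples, with nothing said of separate cultures, so their spread may be technical. The lists of housekeeping, imprinted, DNA methylation machinery and other-cell marker genes had no start in the class, so the stem cell label, the Uhrf1 deletion and the Mof knockdown could not be checked at these sites. A copy of ribosomal RNA sequence on chromosome 17 (Rn18s-rs5) gave 71 of the rescue table's sites and 92 in the knockdown table. Its reads can come from many near-identical copies and its values are uncertain, so the main means and counts are also given without it.

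Promoter shore sites were lowly methylated in wild type and lost most of that methylation without Uhrf1. The mean over sites was 11.4% and 12.8% in the wild-type libraries, or 12.1% ± 0.967 (SD, n = 2), and 2.28% and 2.45% in the Uhrf1-/- libraries, or 2.37% ± 0.119 (SD, n = 2). Uhrf1-/- cells were 9.70 points lower on average (a difference of -9.70 percentage points) and kept 19.6% of the wild-type level. Wild-type rescue cells were at 13.5%, slightly above both wild-type libraries, and 3KR cells at 3.75%, above both Uhrf1-/- libraries but far below the wild-type rescue. Without the ribosomal copy the 4 groups were at 12.3% ± 1.19 (SD, n = 2), 2.40% ± 0.126 (SD, n = 2), 13.6% and 3.72%. With 2 libraries against 2, an exact permutation test cannot give p below 0.33, so none is quoted for these means.

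Most sites carried no methylated read at all. Sites at 0 made up 69.4% ± 0.151 (SD, n = 2) of the class in wild type, 83.7% ± 0.391 (SD, n = 2) in Uhrf1-/-, 61.3% with wild-type UHRF1 and 82% with 3KR. Leaving the ribosomal copy out, these shares were 70.1%, 86.1%, 62.8% and 83.0%. Fully or nearly fully methylated sites, at 80% or more, made up 4.71% ± 0.753 (SD, n = 2) in wild type, 0.0213% ± 0.0301 (SD, n = 2) in Uhrf1-/-, 3.24% with wild-type UHRF1 and 0.213% with 3KR. The wild-type rescue thus had fewer sites at 0 than wild type and also fewer at the top. It also had the highest median depth, 20 reads a site against 14 in both wild-type libraries. A site read more deeply is less often at 0, and the part of depth in these shares was not tested.

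The class lay between island promoters and other shores in level. Promoter sites inside islands averaged 1.81% in wild type and 0.812% in Uhrf1-/-. Shore sites away from promoters averaged 34.7% and 5.83%, and promoter sites outside islands and shores 52.5% and 9.57%. The share of the wild-type level left in Uhrf1-/- was 16.8% in the other shores and 18.2% in promoters outside islands, next to 19.6% in promoter shores and 44.7% in island promoters. The 3KR rescue reached 27.8% of the wild-type rescue in promoter shores, 27.4% in other shores and 31.2% in promoters outside islands. No test of differences between classes was made, since sites of a library are not replicates.

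**Figure D1:**
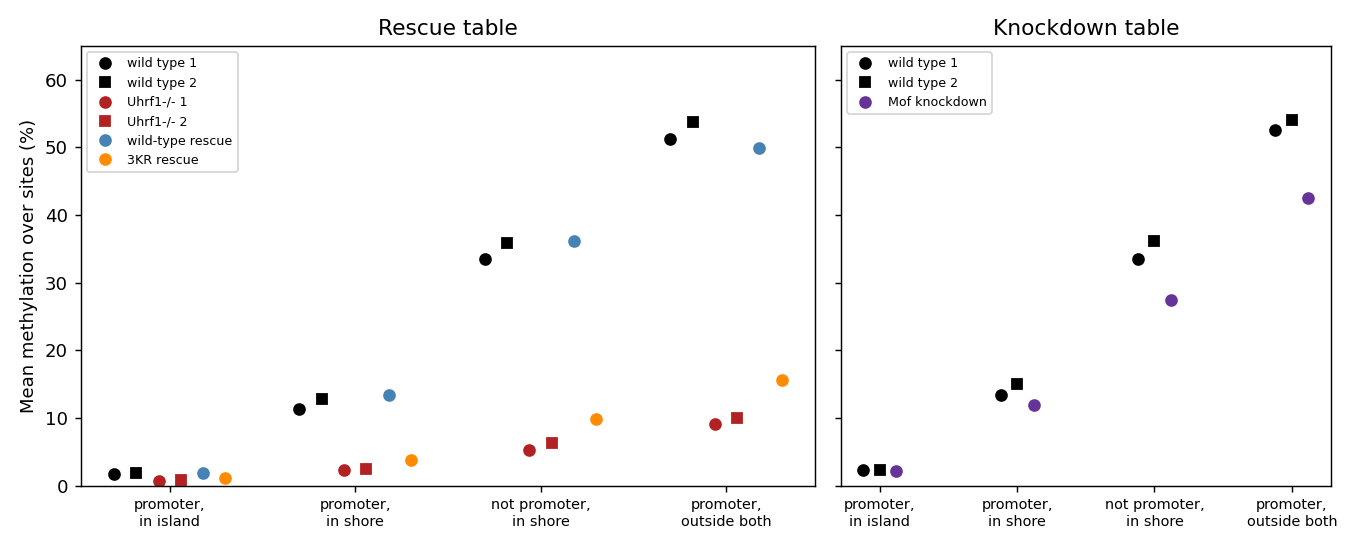
Mean methylation over sites (percent, y axis) in each library for 4 annotation classes (x axis), in the rescue table (left) and the knockdown table (right). Each symbol is 1 library. Promoter shore sites sit at 11.4% and 12.8% in wild type and at 2.28% and 2.45% in Uhrf1-/-, with the wild-type rescue at 13.5% and the 3KR rescue at 3.75%.

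Within 77 starts that had both shore and island sites in their promoter, the shore sites averaged 1.82% and 1.58% in the wild-type libraries, and the island sites 1.54% and 1.85%. Both kinds were nearly unmethylated there. Taking the 401 starts with at least 3 sites, 259 averaged under 5% in wild type and 39 reached 50% or more, with 25.7% of the starts between. In Uhrf1-/- and in the 3KR rescue no start reached 50%, while 39 did in the wild-type rescue. Among the 73 starts at 20% or more in wild type, sites of 1 start differed by a median SD of 20.4 points. This spread includes counting error from few reads a site, and the part of that error was not tested.

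Methylation rose with distance upstream of the start. Without the ribosomal copy, the 130 sites from 1001 to 750 bases upstream averaged 28.7% ± 0.1 (SD, n = 2) in wild type, and the bins nearer to the start averaged 20.9% ± 2.29, 13.3% ± 1.54 and 8.43% ± 0.164. Downstream of the start the wild-type mean stayed between 8.90% and 11.1% in all 4 bins of the rescue table. Over the sites of the knockdown table, the same libraries averaged 7.81%, 11.6% and 11.7% in the downstream bins up to 750 bases. Beyond 750 bases they averaged 18.0% ± 1.52 (SD, n = 2), so the flat downstream level held only for the rescue table's sites. In the rescue table the upstream part of the class averaged 15.7% ± 1.05 (SD, n = 2) and the downstream part 10.1% ± 1.28 (SD, n = 2).

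Uhrf1-/- cells were lower in all 8 bins, from 5.28% ± 1.19 (SD, n = 2) in the farthest upstream bin to 1.67% ± 0.238 between 500 and 750 bases downstream. The share of wild type that was left lay between 16.7% and 25.4%, so the profile was lowered along its whole length. The wild-type rescue exceeded both wild-type libraries in 5 of the 8 bins, from the farthest upstream one (29.7% against 28.8% and 28.7%) to the one beyond 750 bases downstream, where the excess was widest (16.4% against 9.87% and 12.4%). Values of the 3KR rescue stayed between 2.89% and 5.78% in all 8 bins.

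**Figure D2:**
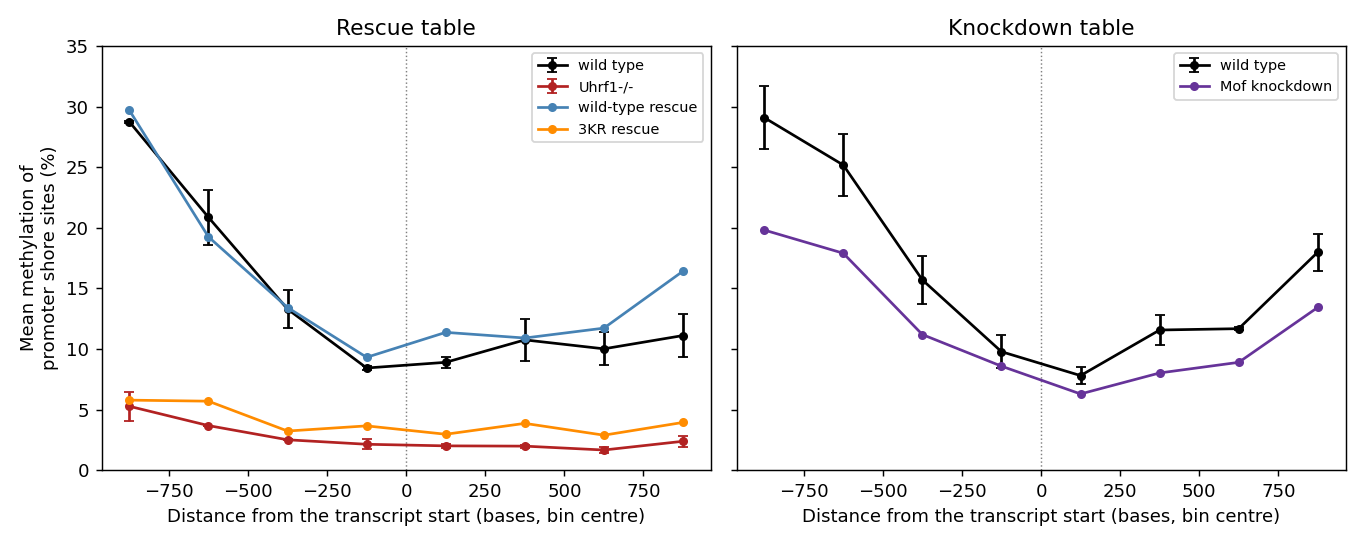
Mean methylation of promoter shore sites (percent, y axis) by distance from the transcript start in 250-base bins (x axis, negative is upstream), without the ribosomal copy, in the rescue table (left) and the knockdown table (right). Points are group means, and bars are the SD of 2 libraries where a group has 2. The wild-type curve falls from 28.7% far upstream to 8.43% just before the start, and the Uhrf1-/- and 3KR curves stay at or under 5.78%.

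Levels grouped by gene structure lay closer together than those grouped by distance. The 725 sites that overlapped an exon averaged 14.0% ± 0.589 (SD, n = 2) in wild type, the 1152 in introns 10.8% ± 1.33, and the 471 in neither 12.2% ± 0.648. Without the ribosomal copy, whose sites all overlapped an exon, the 654 exon sites left averaged 15.0% ± 1.34 (SD, n = 2) in wild type. In Uhrf1-/- these 3 kinds averaged, over all sites of the class, 2.65%, 2.03% and 2.77%, and in the 3KR rescue 4.29%, 3.65% and 3.18%.

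Sites were also sorted by their level in 1 wild-type library and read in the others, so that the library used for sorting was not the one compared. The 98 sites at 80% or more in wild type 1 averaged 77.9% in wild type 2, 68.5% in the wild-type rescue, 20.6% in the 3KR rescue and 11.6% in Uhrf1-/-. The 142 sites from 50 to under 80% averaged 65.5%, 56.4%, 16.5% and 8.03% in the same order. At the 1617 sites with no methylated read in wild type 1 the values were 2.94%, 4.70%, 1.39% and 1.16%.

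The wild-type rescue thus lay above the second wild-type library at lowly methylated sites and below it at highly methylated ones. It reached 160% of wild type 2 at sites at 0 in wild type 1, 137% at those up to 20%, and 86.1 to 91.2% in the 3 higher classes. With the sites sorted on wild type 2 instead and compared with wild type 1, the shares were 204% and 206% in the lowest classes, 123% and 99.5% in the next, and 90.6% in the highest. Loss in Uhrf1-/- was proportionally deepest above 20%, where 12.2 to 14.9% of wild type 2 was left.

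**Figure D3:**
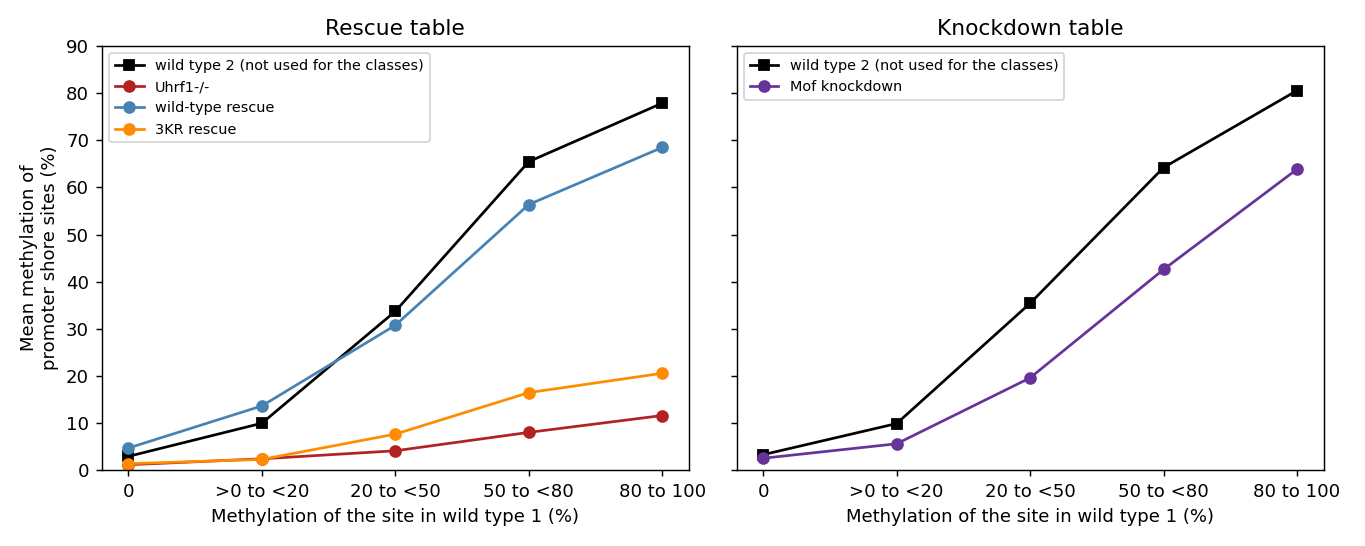
Mean methylation of promoter shore sites (percent, y axis) in classes of their level in wild type 1 (x axis), read in the other libraries, without the ribosomal copy. In the highest class wild type 2 is at 77.9%, the wild-type rescue at 68.5%, the 3KR rescue at 20.6% and Uhrf1-/- at 11.6% in the rescue table (left), and in the knockdown table (right) wild type 2 is at 80.5% and the Mof knockdown at 63.9%.

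Loss in Uhrf1-/- was tested site by site with the quasi-likelihood test of edgeR, run on reads with and without methylation and adjusted over all sites of the table by Benjamini-Hochberg; a call needed an adjusted p under 0.05 together with a change of 20 points or more. Of 776 promoter shore sites with at least 10 reads in each of the 4 libraries, 55 (7.09%) were called lower and 0 higher, beside 32.3% of all 4603 sites tested called lower. All 55 lay outside the ribosomal copy, among 717 sites (7.67%). At an unadjusted p under 0.05, edgeR gave 90 lower and 1 higher, and limma on percentages called 64 lower and 0 higher. Only 134 of the 776 sites, or 17.3%, were at 20% or more in wild type and so had room for such a fall, against 56.5% of all sites tested. The median difference was 0 points in the class and -32.9 points over all sites. Without wild-type library 1, wild-type library 2 or Uhrf1-/- library 1, edgeR called 0 sites, and without Uhrf1-/- library 2 it called 20. Such a fit leaves 1 library in a group, which is assumed to vary like the other groups. At an unadjusted p under 0.05 these 4 fits gave 81, 63, 59 and 86 falls.

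Summing the reads of the sites that share a start gave firmer calls. Of 392 starts with at least 20 reads in each library, edgeR called 63 (16.1%) lower and 0 higher, beside 61.6% of all 2654 units of this kind. At an unadjusted p under 0.05 edgeR gave 102 falls and 4 rises. By limma, 58 falls passed. Leaving out Uhrf1-/- library 1 reduced the calls to 24, all among the 63.

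Starts with at least 3 sites of 10 or more reads in every library of the rescue table numbered 94, and 19 of them (20.2%) were called lower, beside 58.3% of the 527 units of the whole table under the same filter. The 8 largest falls were those of Gm9828, ENSMUST00000153748, Abhd17a, Gjb6, Meioc, ENSMUST00000204157, Gm30191 and ENSMUST00000022646. Starts without a RefSeq match keep their transcript identifier. At each of the 8 both Uhrf1-/- libraries were below both wild-type libraries. Levels of a start are means over its sites of 10 or more reads, or over all its listed sites where it is described as a member of a gene list, and its test uses the reads summed over all its listed sites.

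Gm9828, a predicted gene whose measured start lies inside the RefSeq gene, fell most (3 sites, chr13:98318854-98318938, 150 to 234 bases downstream). Its sites averaged 78.1% and 82.1% in wild type and 0 and 12.1% in Uhrf1-/-, a difference of -74.0 points with an edgeR adjusted p of 6.29e-05. It was at 62.6% with wild-type UHRF1 and 16.9% with 3KR, so the wild-type rescue came close to wild type without reaching it.

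The ENSMUST00000153748 start (3 sites, chr8:20298257-20298333) averaged 87.2% and 79.7% in wild type, 18.5% and 15.2% in Uhrf1-/-, 58.8% with wild-type UHRF1 and 9.84% with 3KR. Its 3KR value was below both Uhrf1-/- libraries. The edgeR adjusted p of the fall in Uhrf1-/- was 0.000233.

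Abhd17a encodes an enzyme that removes palmitate from proteins, and the measured start lies inside the gene (4 sites, chr10:80588800-80588834). Its sites averaged 62.7% and 80.6% in wild type and 0 and 29.1% in Uhrf1-/-, the widest gap between the Uhrf1-/- libraries among these 8 starts. Values were 67.8% with wild-type UHRF1 and 22.7% with 3KR. The edgeR adjusted p was 8.31e-05 and rose to 0.091 without Uhrf1-/- library 1, where the difference was -42.6 points in place of -57.2.

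Gjb6, which encodes the gap junction protein connexin 30, showed the largest gap between the rescues (4 sites inside the gene, 570 to 498 bases before the annotated start, chr14:57132556-57132628). It averaged 76.4% and 61.1% in wild type, 25% and 6.25% in Uhrf1-/-, 75.4% with wild-type UHRF1 and 2.78% with 3KR. The wild-type rescue lay within the range of wild type, and the 3KR rescue below both Uhrf1-/- libraries. The fall in Uhrf1-/- had an edgeR adjusted p of 0.00173, which rose to 0.0772 without Uhrf1-/- library 2, where the difference was -43.7 points in place of -53.1.

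ENSMUST00000204157 (7 sites, chr6:136519407-136519489) and Gm30191 (4 sites, chr4:134247509-134247626) were alike in that the wild-type rescue regained only part of the level. ENSMUST00000204157 averaged 45.7% and 66.2% in wild type, 1.30% and 6.67% in Uhrf1-/-, 25.5% with wild-type UHRF1 and 0 with 3KR. Gm30191 averaged 39.2% and 67.9% in wild type, 2.08% and 10.3% in Uhrf1-/-, 24.0% with wild-type UHRF1 and 0 with 3KR. The edgeR adjusted p-values were 1.44e-05 and 0.0027, and without Uhrf1-/- library 1 they were 0.0511 and 0.108, with differences in summed reads of -50.5 and -41.4 points in place of -52.3 and -45.9. Gm30191 also lost its call without wild type 2, at an edgeR adjusted p of 0.0744 and -31.1 points.

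**Figure D4:**
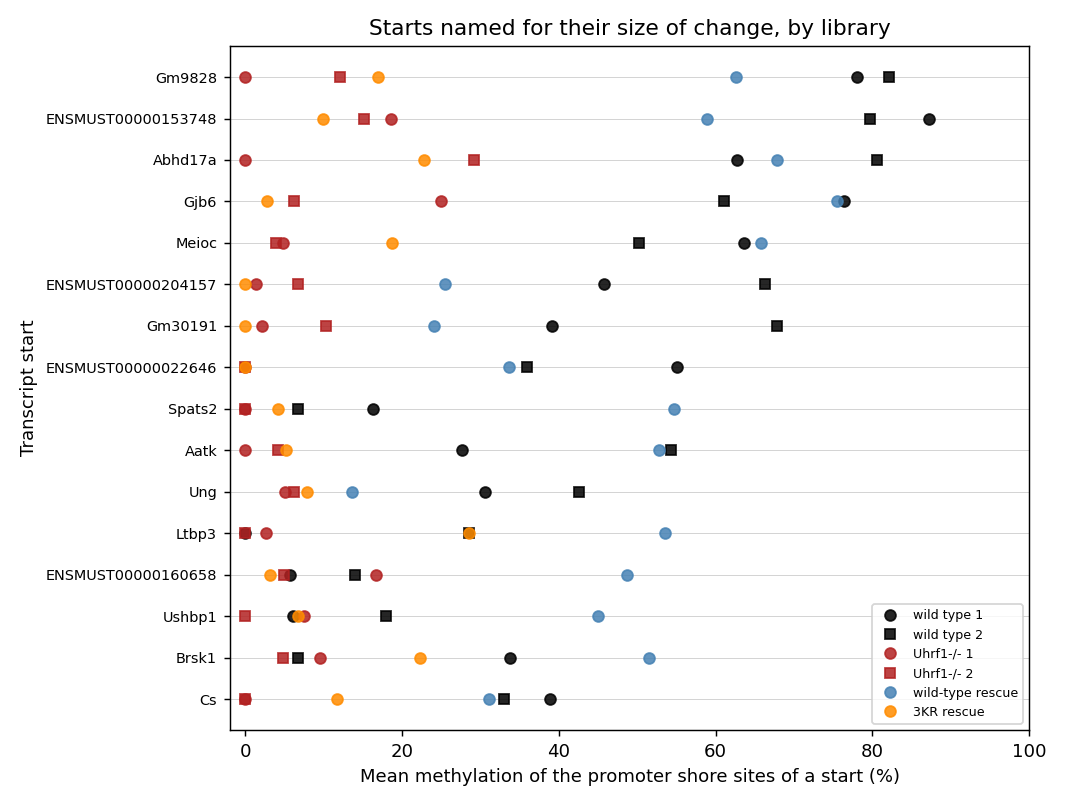
Mean methylation of the promoter shore sites of a start (percent, x axis) for starts (y axis) named for a large fall in Uhrf1-/- or a large difference of a rescue, leaving out those named only for a 3KR value above the wild-type rescue. Each symbol is 1 library of the rescue table. At Gjb6 the wild-type rescue is at 75.4% and the 3KR rescue at 2.78%, and at Spats2 the wild-type rescue, at 54.7%, is above both wild-type libraries.

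Differences of at least 20 points were counted at sites with 10 or more reads in the libraries compared. The wild-type rescue was that much higher than Uhrf1-/- at 231 of 1043 sites, against 61% of all sites of the table, and lower at 1, against 0.122%. The 3KR rescue was lower than the wild-type rescue at 295 of 1470 sites, against 57% of all sites, and higher at 10, against 0.966%. Compared with Uhrf1-/-, 3KR cells exceeded by that much at 39 of 935 sites (15.8% of all sites) and lower at 9 (2.8% of all sites). For scale, the 2 Uhrf1-/- libraries differed this much from each other at 28 sites in one direction and 29 in the other, of 1251. The 3 counts in the leading direction were 228 of 981, 292 of 1408 and 35 of 864 without the ribosomal copy.

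Over the class the wild-type rescue regained 115% of the mean lost in Uhrf1-/-, and the 3KR rescue 14.3%, or 113% and 13.4% without the ribosomal copy. Comparisons with Uhrf1-/- share its libraries, and those with wild type share the wild-type libraries, so they are given side by side only. Over all sites of the table the rescues regained 90.2% and 14.1%.

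Besides Gjb6, ENSMUST00000153748, Meioc and Gm9828, the starts with the largest shortfall of the 3KR rescue were those of Spats2 and Aatk. Aatk, an apoptosis-associated tyrosine kinase gene, averaged 27.6% and 54.3% in wild type, 0 and 4.17% in Uhrf1-/-, 52.7% with wild-type UHRF1 and 5.13% with 3KR (3 sites, chr11:120048004-120048074). Spats2 had little methylation in wild type, 16.2% and 6.67%, and was at 0 in both Uhrf1-/- libraries, yet 54.7% with wild-type UHRF1 and 4.11% with 3KR (3 sites, chr15:99127679-99127696). Its wild-type rescue reads were 82 methylated of 176 over its 4 listed sites (46.6%, Wilson 95% interval 39.4 to 54.0%), and 1 of 49 was methylated in Uhrf1-/- library 2.

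Among starts with 3 or more sites of at least 10 reads in every library, the largest shortfalls were far bigger than the largest excesses. The 6 starts of this set where the 3KR rescue most exceeded the wild-type rescue were Cdc16, 2010001A14Rik, Vangl2, Mcur1, Atp6v0a1 and Oaz2. There the excess was 4.17 points or less. At Cdc16 the difference turned to -15.3 points once sites of 5 or more reads were taken in. Tmprss12 did not meet the read minimum of this set and had a larger excess. Its 5 sites averaged 8% with wild-type UHRF1 and 44% with 3KR.

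Starts where the 3KR rescue most exceeded Uhrf1-/- were Ltbp3, Brsk1, Meioc and Cs. Ltbp3, which encodes a binding protein of latent TGF-beta, averaged 0 and 28.5% in wild type, 2.56% and 0 in Uhrf1-/-, 53.5% with wild-type UHRF1 and 28.6% with 3KR (3 sites, chr19:5742671-5742677). Once sites of 5 or more reads were taken in, the Ltbp3 gap between the rescues shrank from -25.0 to -1.09 points, and the excess of its wild-type rescue over wild type from 39.3 to 14.7. Brsk1, a kinase gene known for neuronal polarity, averaged 33.8% and 6.67%, 9.52% and 4.76%, 51.5% and 22.2% in the same order (3 sites, chr7:4708060-4708113). Cs, the citrate synthase gene, averaged 38.9% and 33.0% in wild type, 0 in both Uhrf1-/- libraries, 31.1% with wild-type UHRF1 and 11.7% with 3KR (3 sites, chr10:128336961-128336999). Cs was called lower in Uhrf1-/- (edgeR adjusted p 0.000265), whereas Brsk1 did not pass (0.307).

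Against wild type itself, the wild-type rescue was at least 20 points higher at 101 of 1202 sites (8.56% of all sites) and lower at 64 (17% of all sites). The counts were 100 and 64 of 1147 without the ribosomal copy. The 2 wild-type libraries differed this much at 58 and 117 of 1337 sites. Spats2, Ltbp3, ENSMUST00000160658 and Ushbp1 had the largest excess. ENSMUST00000160658 (7 sites, chr15:48791744-48791843) averaged 5.66% and 13.9% in wild type, 16.7% and 4.90% in Uhrf1-/-, 48.7% with wild-type UHRF1 and 3.17% with 3KR. Ung, the uracil-DNA glycosylase gene, was among the starts with the largest deficit: 30.6% and 42.5% in wild type, 5% and 6.25% in Uhrf1-/-, 13.6% with wild-type UHRF1 and 7.82% with 3KR (4 sites inside the gene, chr5:114132264-114132343).

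Of the 12 starts with the most measured sites, named whatever their values, 8 stayed under 5% in all 6 libraries of the rescue table. They were Mtrex (a helicase of the nuclear RNA exosome, 9 sites), 2810013P06Rik (9), 4930483J18Rik (8), Rnf187 (an E3 ubiquitin ligase, 7), Nck1 (an adaptor of tyrosine kinase signalling, 7), Bcl9 (a coactivator in Wnt signalling, 7), ENSMUST00000182010 and AY036118. ENSMUST00000182010 and AY036118 lie in the ribosomal copy. At ENSMUST00000182010 the mean stayed under 5% over the 41 better-read sites. Over all 45 listed sites there, the wild-type rescue minus Uhrf1-/- was 6.52 points. At 4930483J18Rik the mean stayed under 5% over the 8 better-read sites. Over all 10 listed sites there, Uhrf1-/- minus wild type was -8.67 points and the 3KR rescue minus Uhrf1-/- 11. The other 4 were methylated in some library: ENSMUST00000204157 and ENSMUST00000160658, given above, ENSMUST00000200021 of the ribosomal copy, at 19.6% in wild type 1 and 0.948% in wild type 2 over 8 sites, and Pax9. Pax9, a developmental transcription factor gene with 7 sites, was at 0 and 8.57% in wild type, 2.29% and 0 in Uhrf1-/-, 11.8% with wild-type UHRF1 and 1.14% with 3KR.

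Germline genes gave 3 starts of 30 listed genes. Only 2 of these had enough reads for the test, and both were called lower in Uhrf1-/-. Beside them, 61.6% of all 2654 units and 16.1% of the 392 starts of the class were called lower. Over all 9 listed sites of Meioc, 895 to 725 bases before the start (chr11:102664693-102664863), means were 62.6% and 62.7% in wild type, 15% and 11.2% in Uhrf1-/-, 63.7% with wild-type UHRF1 and 23.3% with 3KR. The edgeR adjusted p of its fall was 0.000247. Pooled reads gave 21.9% in the 3KR rescue (23 of 105, Wilson 95% interval 15.1 to 30.7%), above the 12.5% and 9.41% of the Uhrf1-/- libraries.

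Sycp1 had lower values in both rescues than Meioc. Over its 4 listed sites (chr3:102936699-102936884, 785 to 600 bases before the start) it averaged 65.7% and 67.4% in wild type, 0 and 3.33% in Uhrf1-/-, 38.8% with wild-type UHRF1 and 0 with 3KR. The edgeR adjusted p of its fall was 1.90e-05. The 0 in the 3KR rescue rests on 36 reads, which allow up to 8.33%. Tdrd1, a gene of the piRNA pathway, had 1 site, at 0 in both wild-type libraries and at 14.3% in Uhrf1-/- library 2, with 7 to 31 reads in each library of the rescue table, too few for the test.

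Lineage transcription factors gave 4 starts of 25 genes. Lhx2 (7 sites) and Olig2 (6 sites) stayed at or under 2.90% in all 6 libraries of the rescue table and did not pass the test (edgeR adjusted p 0.106 and 0.437). Hoxa9 had 1 site of 5 to 12 reads, at 33.3% in both wild-type libraries and the wild-type rescue and at 0 in both Uhrf1-/- libraries and the 3KR rescue. That depth allows up to 60% where 5 reads were seen. Neurog1 had 2 sites, at 10.6% in the wild-type rescue and 0 elsewhere. Pluripotency genes gave 2 starts of 20, Sox2 and Nr5a2, with 1 site each: Sox2 was at 12.5% in wild type 1 and 0 in the other 5 libraries, and Nr5a2 at 0 in all 6.

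In the Mof knockdown, promoter shores lost a small part of their methylation, once the ribosomal copy was set aside. Over all 2763 sites the mean was 13.4% and 15.0% in wild type, or 14.2% ± 1.10 (SD, n = 2), and 11.9% in the knockdown, a difference of -2.26 points (-1.20 with reads pooled over sites). Without the 92 sites of the ribosomal copy it was 14.5% ± 1.36 (SD, n = 2) and 10.7%, a difference of -3.80 points, with the knockdown below both wild-type libraries (13.5% and 15.5%). The knockdown then kept 73.8% of the wild-type level, and 84.1% with the copy left in. The copy was not taken out of the other classes. They kept 79.0% in other shores, 79.7% in promoters outside islands, 91.7% in promoters inside islands and 82.8% over all sites. Whether the class kept less or more than all sites thus depended on the copy.

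Without the ribosomal copy, the knockdown was below the wild-type mean in all 8 distance bins. It was at 19.8% against 29.1% ± 2.59 (SD, n = 2) in the farthest upstream bin and at 8.58% against 9.78% ± 1.38 (SD, n = 2) in the bin just before the start, where the gap was within 1 SD of wild type. Among sites sorted on wild type 1, the 160 sites at 80% or more averaged 80.5% in wild type 2 and 63.9% in the knockdown, and the 217 sites from 20 to under 50% averaged 35.4% and 19.6%. Sorted on wild type 2 and compared with wild type 1, the gap was narrower: 73.2% and 60.0% at the 192 sites at 80% or more, and 24.3% and 17% at the 252 sites from 20 to under 50%. At sites at 0 in wild type 2 the knockdown stood at 108% of wild type 1, and at sites at 0 in wild type 1 at 77.0% of wild type 2.

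Falls of 20 points or more in the knockdown were seen at 95 of 1061 sites (21.2% of all sites) and rises at 63 (4.34% of all sites). Of the 63, only 24 remained without the ribosomal copy, of 999 sites, whereas all 95 lower sites lay outside it. With the spread borrowed from wild type, edgeR called 0 sites of the class in either direction, though before adjustment 9 falls and 45 rises had a p under 0.05. The sites counted before adjustment were not taken apart by the ribosomal copy, which is part of the 1061 sites. The wild-type libraries differed by 20 points or more at 63 and 132 of 1577 sites of the class in this table.

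Starts with the largest falls in the knockdown were ENSMUST00000126460, ENSMUST00000204157, Blcap, Pgm5, ENSMUST00000149007 and ENSMUST00000226401, at -34.0 to -26.0 points. ENSMUST00000126460 (3 sites, chr11:100144187-100144270) averaged 82.5% and 89.1% in wild type and 51.9% in the knockdown. Pgm5, which encodes a phosphoglucomutase-like protein of cell junctions, averaged 49.1% and 51.0% in wild type and 20.8% in the knockdown (6 sites, chr19:24861213-24861358). Blcap, with 3 sites inside the gene (chr2:157562205-157562287), averaged 44.5% and 59.7% in wild type and 18.8% in the knockdown. Its difference was -33.3 points, and -20.0 once sites of 5 or more reads were taken in. ENSMUST00000204157, also among the largest falls in Uhrf1-/-, was at 22.4% in the knockdown. At each of these 4 the knockdown was below both wild-type libraries.

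Of the 3 germline starts, Sycp1 and Meioc were lower in the knockdown, and Tdrd1 was at 0 in all 3 libraries, with 9 to 13 reads. Sycp1 was at 29.2% in the knockdown against 65.7% and 67.4% in wild type, with 11 of 36 pooled reads methylated (30.6%, Wilson 95% interval 18.0 to 46.9%). Meioc was at 50.3% against 62.6% and 62.7%, with 58 of 116 pooled reads (50%, 41.0 to 59.0%). Pooled wild-type reads gave 62.9% (54.8 to 70.4%) and 59.2% (52.9 to 65.2%) at Meioc, and both intervals overlap that of the knockdown. At Sycp1 they gave 75% (63.2 to 84.0%) and 73% (63.6 to 80.7%), above the knockdown interval. Tmprss12, at 56.2%, was above the wild-type mean of 47.8% at its 4 sites in this table. In pooled reads it was also at 56.2% (18 of 32), between the wild-type libraries (38.5% and 56.5%). Gjb6, at 65% of pooled reads, lay between the wild-type libraries as well (76.4% and 61.1%).

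Of 169 starts with 3 or more sites of at least 10 reads in the knockdown table, that of ENSMUST00000182010, within the ribosomal copy, stood highest above wild type, at 40.5% over 54 sites against 3.94% and 0.732% in wild type. The next was Maneal, a gene of a mannosidase-like protein, at 17.3% against 1.54% and 3.93% (5 sites, chr4:124861522-124861620). Vax2os, Gng8, Manea and Pax9 followed, with differences of 9.86 points or less, and at Vax2os the wild-type libraries themselves were at 0 and 17%.

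The rise in the ribosomal copy was concentrated around the start. The 36 sites from chr17:39846876 to 39847211 averaged 89.3% in the knockdown (76.5 to 100% a site), 17.8% in wild type 1 and 0.463% in wild type 2. Their median depth was 20 reads in the knockdown, 8.5 in wild type 1 and 6 in wild type 2. The rescue table listed 4 sites of this stretch, at 60% in the wild-type rescue, with a median of 5 reads. There they averaged 12.5% and 0 in wild type, 1.21% and 0.262% in Uhrf1-/-, and 8.92% in the 3KR rescue. The 41 sites farther upstream averaged 26.7% in the knockdown, 1.97% and 0.558% in wild type. The 126 island sites of the same copy stayed at 0.883% in the knockdown, beside 1.39% and 1.07%. Many neighbouring sites have equal values because the same reads cover them.

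A second start of the copy, ENSMUST00000200021, separated the wild-type libraries instead: its 9 sites in this table averaged 20.2% in wild type 1, 0.842% in wild type 2 and 8.26% in the knockdown. In the rescue table its 20 sites averaged 26.8% and 0.379% in wild type, 1.57% and 1.46% in Uhrf1-/-, 17.5% with wild-type UHRF1 and 10.9% with 3KR. Mitochondrial sites, which are no promoter shore sites, also stood at 7.08% in the knockdown, against 1.33% and 0.375% in wild type; their part in the rise at the copy was not tested.

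**Figure D5:**
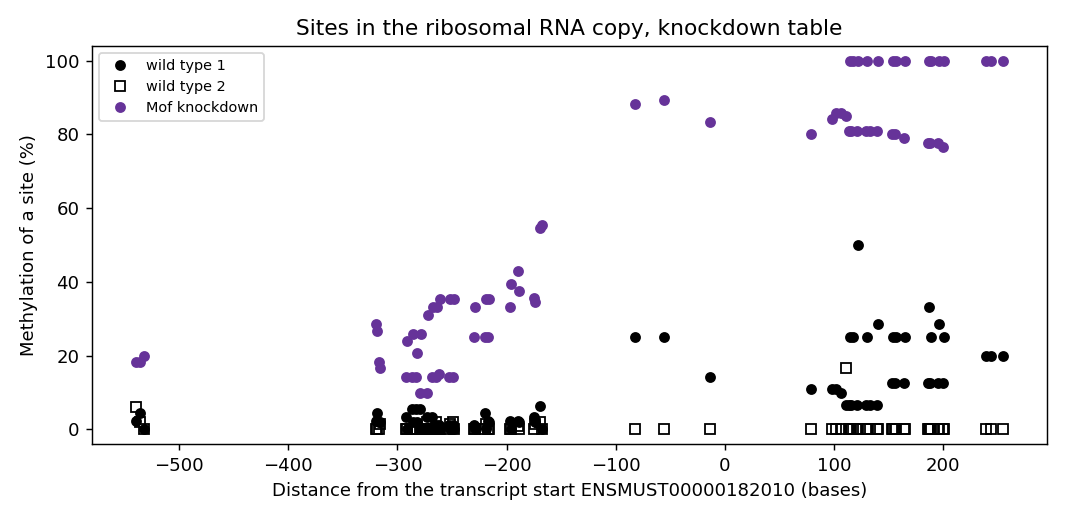
Methylation of each promoter shore site (percent, y axis) of the start ENSMUST00000182010, in the ribosomal RNA copy, against its distance from that start in bases (x axis), in the 3 libraries of the knockdown table. Each symbol is 1 site in 1 library. Around the start the knockdown sites lie between 76.5% and 100%, and wild type 2 averages 0.463%.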

How the data were processed

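The 2 deposited tables list single cytosines. Per the file headers, the deposited values are counts of total, methylated and unmethylated reads, the fraction methylated, the authors' p-value and q-value (not used for any result), their percentage-point difference, annotation classes and the distance to a transcript start. BSMAP 2.73, Trim Galore and cutadapt were run on build mm10, per the submitters' processing notes. The sources used here name neither the methylation caller nor the bounds of shores and promoters. No site has fewer than 5 reads in any library.

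Percentages were recomputed from the counts and averaged over sites, unweighted, in each library. Tests used edgeR 4.0.16 on sites (at least 10 reads) or on starts (summed counts, at least 20 reads) over all libraries of the table. limma 3.58.1 was an alternative. Both were tested on simulated data, where edgeR recovered most losses of the largest size with no false call. There limma passed none of the simulated losses after adjustment. The simulation lowered only a small part of the units, all highly methylated, far fewer than fell in the real data. Its recovery rates therefore need not hold for the real tests of either tool. Starts were named by a RefSeq start within 200 bases on the same strand, or by the gene they lie inside: 349 and 191 of 737 in the rescue table, and 197 kept their identifier. Named starts were those with the most sites, the largest tested falls, the largest differences between single libraries or groups (3 or more sites of at least 10 reads), and all starts of the gene lists. The class was picked for study, and the gene lists drawn up, with earlier results of these data known. Its sites were then taken by annotation alone. Same-numbered libraries did not deviate together over single sites (correlation of deviations from the group means -0.04). With few reads a site, counting error can hide a shared deviation, so this value cannot tell whether the numbers pair the libraries. The main tests treated them as unpaired, and a replicate block was run as an alternative.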

Additional observations from a re-analysis of the deposited data

Results flagged for a closer look

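Mitochondrial sites, which enter no comparison of promoter shores, showed signal in the Mof knockdown library above that in the wild-type control libraries. The 43 sites averaged 7.08% in the knockdown, 1.33% in wild type 1 and 0.375% in wild type 2. At the 39 mitochondrial sites of the rescue table, the Uhrf1-/- and rescue libraries averaged between 0.772% and 1.06%.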

How the results depend on the processing

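Averaging over starts in place of sites gave differences of -11.4 points (Uhrf1-/- minus wild type), 12.8 (wild-type rescue minus Uhrf1-/-), -11.4 (3KR rescue minus wild-type rescue) and -4.39 (Mof knockdown minus wild type). With at least 10 reads in every library the wild-type rescue minus Uhrf1-/- was 10.8 and the 3KR rescue minus Uhrf1-/- 0.883; with reads pooled over sites they were 10.9 and 1.81, the wild-type rescue minus wild type was 0.829 (1.42 as reported) and the Mof difference -1.20 (-2.26 as reported). Without the ribosomal copy, an alternative added after seeing the data, the Mof difference was -3.80. Leaving out 1 library gave -10.4 to -9.02 points for Uhrf1-/- minus wild type, 11 to 11.2 for the wild-type rescue minus Uhrf1-/-, 1.30 to 1.47 for the 3KR rescue minus Uhrf1-/-, 0.738 to 2.10 for the wild-type rescue minus wild type, and -3.04 to -1.49 for the Mof knockdown. The signs of these 6 differences held under every alternative run.

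Of the edgeR calls, 110 sites passed with at least 5 reads, 0 with at least 20 reads (97 sites; 6 at an unadjusted p under 0.05, and fewer sites tested) and 0 to 20 with a library left out. A replicate block gave 9 sites in place of 55 and 57 starts in place of 63. Starts called were 24 at a minimum of 40 reads (fewer starts tested) and 24 to 68 with a library left out. Of the 8 largest falls, 5 stayed called without Uhrf1-/- library 1, 7 without library 2, and 7 without wild type 2.

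Counts of sites that differ by at least 20 points, in the direction of the larger count at 10 reads, moved with the read minimum. So did the number of sites tested, and the shares over all sites were taken at 10 reads only. At 5 and 20 reads they were 523 of 2348 and 16 of 159 for the wild-type rescue over Uhrf1-/-. The 3KR rescue stood under the wild-type rescue at 482 of 2348 and 99 of 564. It stood over Uhrf1-/- at 130 of 2348 and 1 of 141. Over wild type the wild-type rescue stood at 215 of 2348 and 16 of 374. Below wild type the Mof knockdown stood at 306 of 2763 and 20 of 270. At 20 reads the knockdown was higher at more sites than lower, 23 of 270. At 30 points and 10 reads, 16 of 935, 58 of 1202 and 49 of 1061 remained for the last 3 comparisons. Leaving out 1 library gave 279 of 1200 and 328 of 1511 for the wild-type rescue over Uhrf1-/-. For the 3KR rescue over Uhrf1-/- it gave 48 of 1048 and 59 of 1308. For the wild-type rescue over wild type it gave 142 of 1490 and 138 of 1440. For the Mof knockdown under wild type it gave 150 of 1243 and 113 of 1204. With edgeR borrowing the spread of the replicated groups, 4 sites passed for the wild-type rescue over Uhrf1-/- and 0 for each of the other 4 comparisons, with 65, 20, 30 and 9 in the stated direction and 4, 0, 8 and 45 in the other at an unadjusted p under 0.05. At Cdc16 the 3KR rescue minus the wild-type rescue turned to -15.3 points with sites of at least 5 reads; apart from what the read minimum and the libraries left out show, the cause was not tested. The counts at an unadjusted p were taken with the sites of the ribosomal copy left in. A depth of 10 to 20 reads a site limits single sites most.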

Other observations

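By chromosome, promoter shore sites of the rescue table were lower in Uhrf1-/- than in wild type on all 19 autosomes, from -18.8 points on chromosome 9 to -5.19 on chromosome 17. In the Mof knockdown they were lower on 18 of 19 autosomes, with -8.12 points on chromosome 9, and 15.4 points higher on chromosome 17, which holds the ribosomal copy.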
